A study of Caenorhabditis elegans with 12 samples.

Results

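Small RNAs that carry a 5′ monophosphate were compared in Caenorhabditis elegans, between worms carrying both meg-3(ax3055) and meg-4(ax3052) and the wild type N2. The comparison takes 4 of the 12 libraries of the series, 2 per strain, chosen by their labels: both meg-3 meg-4 libraries and both N2 libraries made from RNA that was not treated with 5′ polyphosphatase, an enzyme that turns 5′ triphosphates into monophosphates. Worms of both strains were starved to synchronize them, grown at 20 °C on HT115 bacteria that make a 400 nt double-stranded RNA against pos-1, and harvested whole as young mothers, so both strains carry the same RNA interference (RNAi) trigger and no unfed worms are part of the comparison. RNA was purified with TRIzol and Zymo kits and cloned with the TruSeq small RNA kit. The second meg-3 meg-4 library has a title with the strain number JH3745 in place of JH3475, but both carry 1 genotype label and were taken as 1 group. Nothing in the labels says that the libraries came from separate cultures, so p-values measure the spread between these libraries, which may be technical. The embryos inside young mothers are part of the sample, and in whole worms fewer cells of a type and less RNA per cell cannot be told apart.

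MEG-3 and MEG-4 are disordered proteins that help form P granules, condensates of RNA and protein in the worm germline, where several Argonaute proteins also gather. The TruSeq ligation needs a 5′ monophosphate, which microRNAs, piRNAs (the 21U RNAs bound by the Argonaute PRG-1) and primary small interfering RNAs cut by Dicer carry. The secondary 22G RNAs made by RNA-dependent RNA polymerases carry a 5′ triphosphate and enter such a library poorly. Untreated RNA therefore favours microRNAs, piRNAs and primary small interfering RNAs over the secondary RNAs that amplify the RNAi signal.

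Reads assigned to genes numbered 5021549 and 4830748 in the meg-3 meg-4 libraries, against 4562976 and 4379489 in the N2 libraries. Levels are given in fpm, reads per 1000000 reads assigned to genes in a library, with no correction for gene length, so that 1 read was worth 0.199 to 0.228 fpm. Of 42048 genes listed, 25188 had a read in at least 1 of the 4 libraries. The 10902 with a mean of at least 1 fpm were tested with limma on log2(fpm + 1), a scale that shows changes of low genes as smaller than they are. A gene was called at a Benjamini-Hochberg adjusted p under 0.05. With 2 libraries per strain, a two-sided exact permutation test of a single value cannot give a p below 0.33, so no p is given for shares and sums.

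microRNAs took a larger share of the reads in meg-3 meg-4 and piRNAs a smaller one. microRNAs held 67.461% and 67.324% of the reads in the meg-3 meg-4 libraries, against 64.680% and 62.180% in the N2 libraries. The means were 67.4% ± 0.097 and 63.4% ± 1.77 (SD, n = 2 each). piRNAs held 16.022% and 15.471% in meg-3 meg-4, against 18.314% and 20.842% in N2. The groups did not overlap in either share, yet the 2 N2 libraries stood about as far from each other as from the nearer mutant library. There were 0.238 and 0.230 piRNA reads per microRNA read in meg-3 meg-4, and 0.283 and 0.335 in N2.

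Smaller classes differed by less in absolute share. Genes annotated as other noncoding RNA held 10.704% and 10.982% in meg-3 meg-4, against 10.865% and 9.864% in N2, which overlap. Small nucleolar RNAs (snoRNAs), which guide chemical modification of other RNAs, held 1.984% and 1.946% in meg-3 meg-4, against 2.050% and 2.298% in N2. Long intergenic noncoding RNAs (lincRNAs) held 0.0498% and 0.0501% against 0.0666% and 0.0683%, so that the libraries of each strain lay close together and the strains apart. Much of this gap came from single genes and need not hold across the class. The N2 mean of linc-154 was 231 fpm and its mutant mean 135 fpm, and for linc-12 these were 90.7 and 48.0 fpm. linc-154 overlaps mir-8196.1, and their reads may be mixed, since the strand setting is not known. The test of edgeR, an alternative used below, called linc-6 higher in the mutant. Ribosomal RNA fragments, nearly all of them at the gene rrn-2.1, held 0.467% and 0.442% against 0.673% and 0.489%. Protein-coding genes held 3.203% and 3.662% in meg-3 meg-4, against 3.231% and 4.116% in N2, so that the strains overlapped. Lines of the table with identical values, which share their reads, were counted once in a second pass. microRNAs then held 80.5% ± 0.101 in meg-3 meg-4, against 76.7% ± 2.24 in N2, and piRNAs 11.4% ± 0.299 and 14.3% ± 1.32 (SD, n = 2 each). The other noncoding RNA genes, among them K01F9.6, which shares all reads with mir-80, then held 1.03% ± 0.0563 and 1.10% ± 0.113 (SD, n = 2 each).

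**Figure D1:**
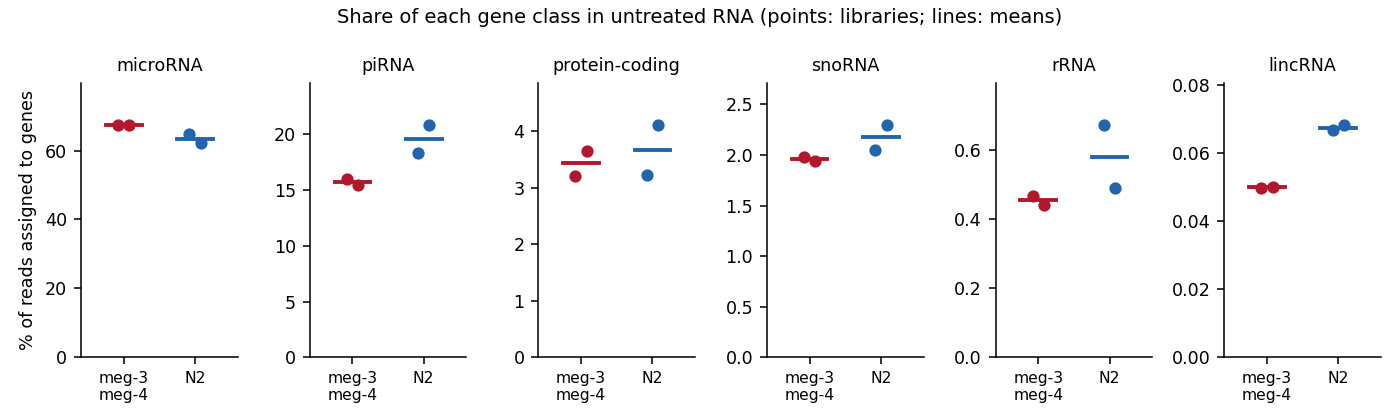
Share of the reads assigned to genes (percent, vertical axes starting at 0, a different range in each panel) held by 6 gene classes in untreated RNA. Points are libraries, lines are means, with meg-3 meg-4 left of N2. The microRNA share is higher and the piRNA share lower in both meg-3 meg-4 libraries, and the protein-coding shares overlap.

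Because fpm sums to the same total in every library, a class can gain share only where others lose it. The median change of the 785 genes of at least 50 fpm was -0.26 on the log2 scale, where a negative value is lower in meg-3 meg-4. It was -0.40 with every library centred on its microRNAs, 0.04 with the median gene centred, and -0.01 under the TMM scaling of edgeR. Of these 785 genes, 506 were lower in meg-3 meg-4 with no overlap between the strains (64.5%) and 62 were higher (7.9%). Changes of a class below are read against this background.

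The mir-35 family went the other way from the rest of the microRNAs. These microRNAs, abundant in oocytes and embryos and needed for embryonic development, number 8, and 7 of them come from 1 cluster on chromosome II. All 8 had a log2 change below 0, with a median of -0.31, and 6 were lower in meg-3 meg-4 without overlap (75%). Both lie near the values of all genes of at least 50 fpm, with a median of -0.26 and 64.5% lower. Of the 101 microRNAs of at least 50 fpm, the 6 with the lowest log2 change were mir-36, mir-38, mir-40, mir-39, mir-37 and mir-35, which are the 6 family members at that level. Summed over the family, meg-3 meg-4 held 26953 ± 1190 fpm and N2 33351 ± 1570 fpm (SD, n = 2 each), with 27794 and 26111 fpm in the mutant libraries and 34461 and 32240 fpm in the N2 libraries.

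mir-36 was the family member that passed the test. It stood at 2650 and 2117 fpm in meg-3 meg-4, against 4006 and 2939 fpm in N2, and fell by 0.53 on the log2 scale (SE 0.12, limma adjusted p = 0.0144). Both mutant libraries lay below both N2 libraries, but the spread within each strain was wide. The call ended without either meg-3 meg-4 library (limma adjusted p = 0.292 without replicate 1 and 0.958 without replicate 2), with the median gene centred (0.848), with genes of at least 10 fpm alone (0.0833), with the rde-11 libraries in the fit (0.140) and with edgeR (0.9503).

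mir-35, the most abundant member, stood at 11349.5 and 10056 fpm in meg-3 meg-4, against 13466 and 11784.5 fpm in N2, a log2 change of -0.24 (limma adjusted p = 0.438). mir-39 stood at 7191 and 7013 fpm against 8594 and 9229 fpm (-0.33, limma adjusted p = 0.219). mir-40 stood at 2372 and 2515 fpm against 3173.8 and 3181.7 fpm (-0.38, limma adjusted p = 0.185). The strains did not overlap in these 3, and limma called none of them. The least abundant members, mir-41 at 46.2 and 37.3 fpm against 40.8 and 64.4 fpm and mir-42 at 12.5 and 10.97 fpm against 12.1 and 13.2 fpm, overlapped between the strains. The median of the family was -0.45 with microRNAs centred, -0.02 with the median gene centred and -0.07 under TMM. With the last 2 scalings mir-35, mir-37 and mir-42 had changes slightly above 0.

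Outside the mir-35 family, 95 microRNAs had at least 50 fpm. Their median log2 change was 0.13, and 82 had a value above 0. Higher in meg-3 meg-4 without overlap were 50 of them (52.6%) and lower 3 (3.16%), against 7.9% and 64.5% of all genes at that level. With microRNAs centred the median was -0.01, and under TMM it was 0.38, so the sign of this set depends on the scaling. A scaling shifts all abundant genes of a library by about the same amount. The distance from the mir-35 family was therefore bound to stay and is no check of it.

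mir-70 and mir-246 rose. mir-70, whose gene lies inside the annotated gene pmp-5, stood at 19666 and 19839 fpm in meg-3 meg-4, against 14402 and 14908 fpm in N2, a 1.35-fold difference (log2 change 0.43, SE 0.10, limma adjusted p = 0.0330). mir-246 stood at 18574 and 18200 fpm against 13075 and 14032 fpm, a 1.36-fold difference (0.44, SE 0.10, limma adjusted p = 0.0262). For both, the libraries of a strain lay close together and the strains far apart, as the plot of microRNAs by library shows. The calls ended with microRNAs centred (limma adjusted p = 0.130 for mir-70 and 0.120 for mir-246), with genes of at least 10 fpm alone (0.0747 and 0.0688) and without either meg-3 meg-4 library (0.744 to 0.939). edgeR gave adjusted p-values of 0.0829 and 0.0707, while the authors' deposited table calls both, with adjusted p-values of 0.00200 and 0.00114.

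**Figure D2:**
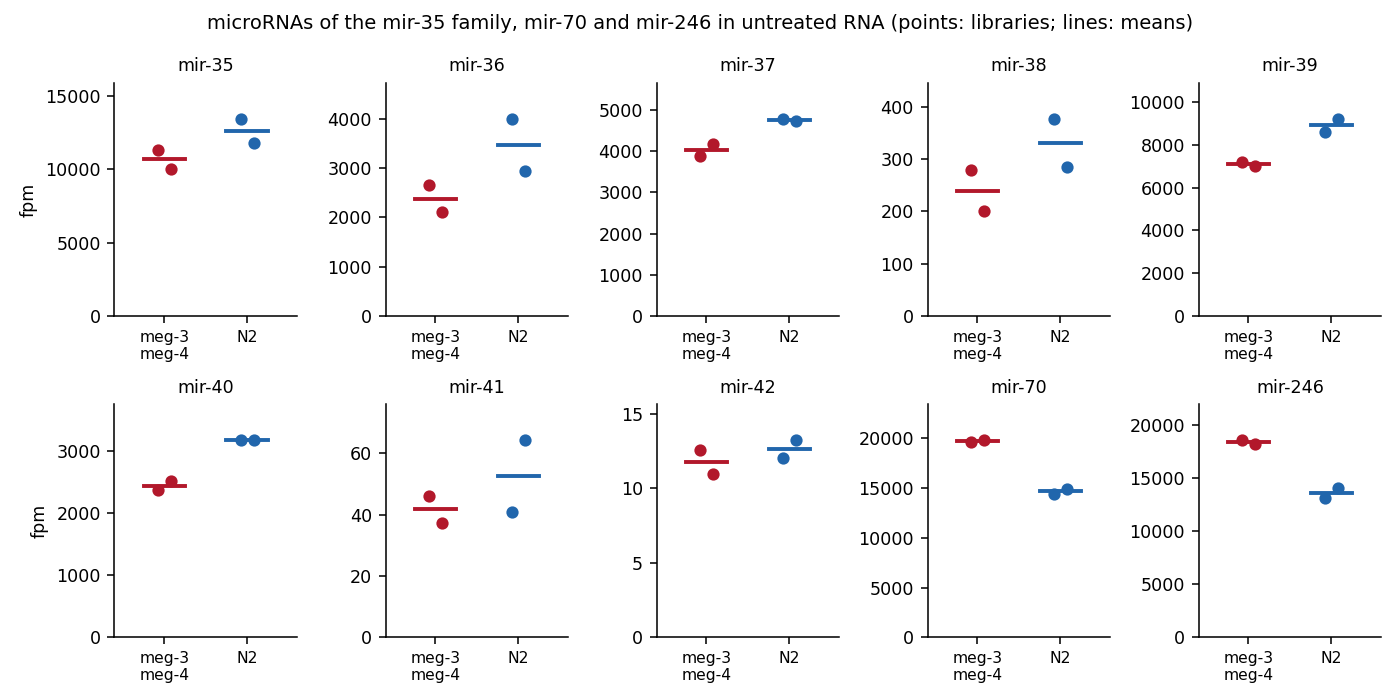
Level in fpm (vertical axes starting at 0, a different range in each panel) of the 8 microRNAs of the mir-35 family and of mir-70 and mir-246 in untreated RNA. Points are libraries, lines are means, with meg-3 meg-4 left of N2. mir-36 is lower and mir-70 and mir-246 are higher in both meg-3 meg-4 libraries, and mir-41 and mir-42 overlap.

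edgeR on the recovered reads called 4 microRNAs, none of them called by limma, and the 3 with at least 50 fpm were mir-252, mir-75 and mir-2209.1. mir-75 stood at 180 and 183 fpm in meg-3 meg-4, against 120 and 132 fpm in N2 (edgeR adjusted p = 0.0224, limma adjusted p = 0.188). mir-252 stood at 218 and 223 fpm against 165 and 155 fpm (edgeR adjusted p = 0.0408, limma adjusted p = 0.219). mir-2209.1, of the mir-58 family, stood at 89.8 and 97.5 fpm against 64.4 and 58.7 fpm (edgeR adjusted p = 0.0393, limma adjusted p = 0.176). These 3 were chosen after their values were seen, and in each the strains did not overlap.

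The most abundant microRNA was mir-82 of the mir-58 family, at 98788 and 102753 fpm in meg-3 meg-4, against 106906 and 90465 fpm in N2. mir-72 followed, at 47563 and 47858 fpm against 42555 and 46698 fpm, and then mir-58.1, at 43043 and 44955 fpm against 45845 and 39329 fpm. mir-80, whose line shares all reads with the noncoding gene K01F9.6, stood at 37411 and 37873 fpm against 42404 and 31419 fpm. mir-57 stood at 34617 and 36101 fpm against 28571 and 34649 fpm, and mir-237 at 33228 and 33372 fpm against 30254 and 29920 fpm. mir-235, mir-81, mir-64 and mir-90 completed the 10 most abundant, with meg-3 meg-4 means of 23238 to 31918 fpm and N2 means of 22077 to 29579 fpm. limma called none of these 10 (adjusted p = 0.540 to 0.966), and in 7 of them the strains overlapped.

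Other families lay near the middle of the microRNAs, and limma called 0 of their members, with 2 higher and 0 lower at an unadjusted p under 0.05. edgeR called mir-2209.1 among them. Over all genes tested, limma called 0.238%, with 1.14% higher and 8.71% lower at an unadjusted p under 0.05. The let-7 and lin-4 families, which time larval development, had a median log2 change of 0.04 over 9 members, with let-7 at 6149 and 6052 fpm in meg-3 meg-4, against 6419 and 5483 fpm in N2. The mir-51 family had a median of 0.11 over 6 tested members and the mir-58 family 0.05 over 6. A list of 7 microRNAs known from single tissues or from ageing had a median of 0.22. In it, mir-1 of muscle stood at 527 and 615 fpm against 547 and 611 fpm, and mir-124, of sensory neurons, at 28.3 and 25.9 fpm against 19.7 and 21.9 fpm. mir-228, of glia, stood at 21615 and 21187 fpm against 18423 and 18449 fpm (limma adjusted p = 0.480).

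piRNAs were lower in meg-3 meg-4 as a class, by a small amount each, and no single piRNA passed the limma test on fpm. The table lists 13407 piRNA genes, of which 11436 had a read and 6146 were tested. limma called 0 of them, against 0.238% of all genes tested. edgeR called 0 under TMM, which moved the median of those of at least 50 fpm to -0.06. With microRNAs centred, limma called 231 piRNAs lower and 0 higher, of 295 genes lower in all. With the median gene centred it called 0 piRNAs, so the count rests on the scaling. All genes tested, piRNAs included, had 124 higher (1.14%) and 950 lower (8.71%) at an unadjusted p under 0.05. Of the 6146 piRNAs, 11 were higher and 740 lower. Among the 531 of at least 50 fpm the median log2 change was -0.31, with the middle 50% between -0.39 and -0.23, and 527 had a value below 0. Lower without overlap were 430 (81.0%, against 64.5% of all genes at that level), and higher 0. Those genes include the piRNAs themselves.

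The size of the difference was about the same for abundant and rare piRNAs. The median log2 change was -0.23 for the 4203 piRNAs with a mean from 1 fpm up to 10 fpm, -0.29 for the 1412 from 10 fpm up to 50 fpm, -0.30 for the 254 from 50 fpm up to 100 fpm, -0.33 for the 215 from 100 fpm up to 500 fpm and -0.30 for the 62 above that. Of the 1943 piRNAs of at least 10 fpm, 1937 lie on chromosome IV, the home of the motif-dependent piRNA clusters, and the 6 elsewhere had a median of -0.29. Many piRNA lines share reads, and with identical lines counted once the median of the 325 left at 50 fpm or more was -0.32. The class median stayed below 0 under every scaling run, from -0.45 with microRNAs centred to -0.02 with the median gene centred, and 531 of the 785 genes of at least 50 fpm are themselves piRNAs.

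The most abundant piRNA sequence is listed under 21ur-11046, 21ur-12805 and 21ur-5787, which overlap and share all their reads. It stood at 3010 and 2789 fpm in meg-3 meg-4, against 3619 and 3874 fpm in N2 (log2 change -0.37, limma adjusted p = 0.190). 21ur-3506 stood at 2252 and 2433 fpm against 2687 and 3348 fpm. 21ur-38 stood at 1703 and 1770 fpm against 1776 and 2371 fpm, and 21ur-3215 at 1651 and 1655 fpm against 1918 and 2356 fpm. In all of these both mutant libraries lay below both N2 libraries. 21ur-705 stood at 1360 and 1341 fpm against 1732 and 1770 fpm, with the libraries of each strain close together. The remaining lines among the 10 most abundant, 21ur-11621 with its identical copy 21ur-5329 and 21ur-4748, had meg-3 meg-4 means of 1473 and 1391 fpm and N2 means of 1844 and 1692 fpm.

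**Figure D3:**
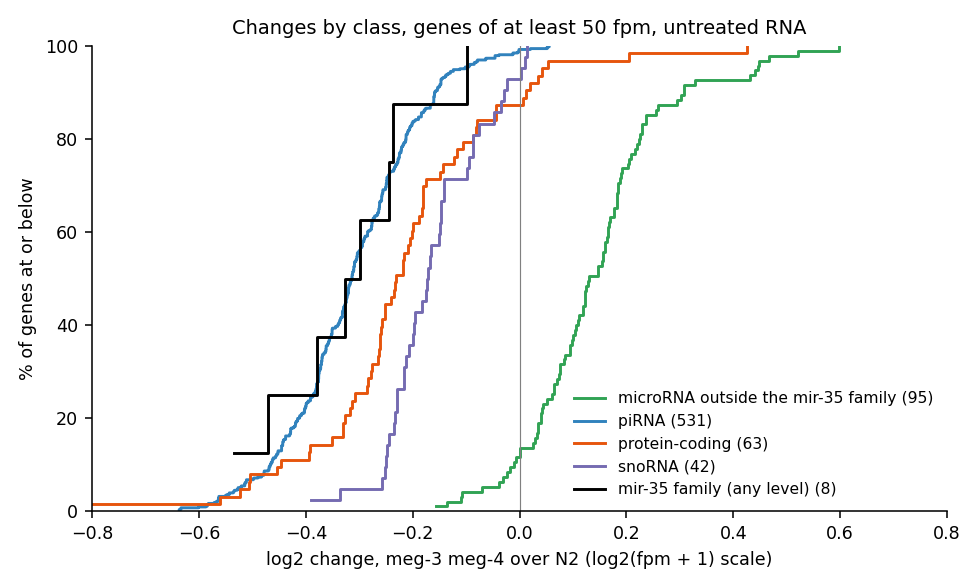
Percent of genes (vertical axis) at or below each log2 change, meg-3 meg-4 over N2 (horizontal axis, log2(fpm + 1) scale), for genes of at least 50 fpm in untreated RNA, and for all 8 members of the mir-35 family. piRNAs (median -0.31) and the mir-35 family (-0.31) lie left of the protein-coding genes and snoRNAs, and the other microRNAs (median 0.13) lie mostly to the right of 0. The protein-coding gene T05E12.8, at -1.31, is beyond the left edge.

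Across all genes, 13 rose and 13 fell of 10902 tested, 0.119% in each direction and 0.238% in all. At an unadjusted p under 0.05 there were 124 higher (1.14%) and 950 lower (8.71%), 9.85% in all. The split of the calls rested on the scaling: 15 rose and 295 fell with microRNAs centred, 34 rose and 4 fell with the median gene centred, and edgeR with TMM called 17 higher (0.215%) and 4 lower (0.0506%) of 7904 genes, 0.266% in all. edgeR shared 8 of the higher and 4 of the lower calls with limma, and the authors' deposited table, which calls 10 higher and 4 lower, shared 5 and 4. All 26 log2 changes kept their sign under every alternative in which the gene was tested. The calls comprised 19 protein-coding genes (11 higher and 8 lower), 3 microRNAs, 2 lincRNAs, 1 snoRNA and 1 other noncoding RNA. Another annotated gene, on either strand, overlaps 9 of the 26. Whether reads were counted by strand is not known, so reads of overlapping genes may be mixed.

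Leaving out a library changed which genes were called. With 1 library left in a strain, the spread comes from the pair of the other strain, and the lone library is assumed to vary like it. The N2 pair differed more than the meg-3 meg-4 pair (median chi-square per gene of 6.63, against 2.38), and the part of that spread in the lost calls was not tested. Without meg-3 meg-4 replicate 1, 7 of the 25 calls still tested were kept, and without replicate 2, 8 of 23. Without N2 replicate 1 it was 22 of 24, and without N2 replicate 2, 23 of 26. None of the 26 was kept when the filter on low values was dropped, which lets every gene with a read into the fit (limma adjusted p = 0.682 at the lowest). Apart from that setting, K07F5.6, B0564.2 and Y57G11C.51 were the 3 genes whose call ended in no alternative that tested them. Y57G11C.51 was tested in 17 alternatives, and K07F5.6 and B0564.2 in 15 each. K07F5.6 and B0564.2 were absent from the fit of genes of at least 10 fpm and had no adjusted p from DESeq2.

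**Figure D4:**
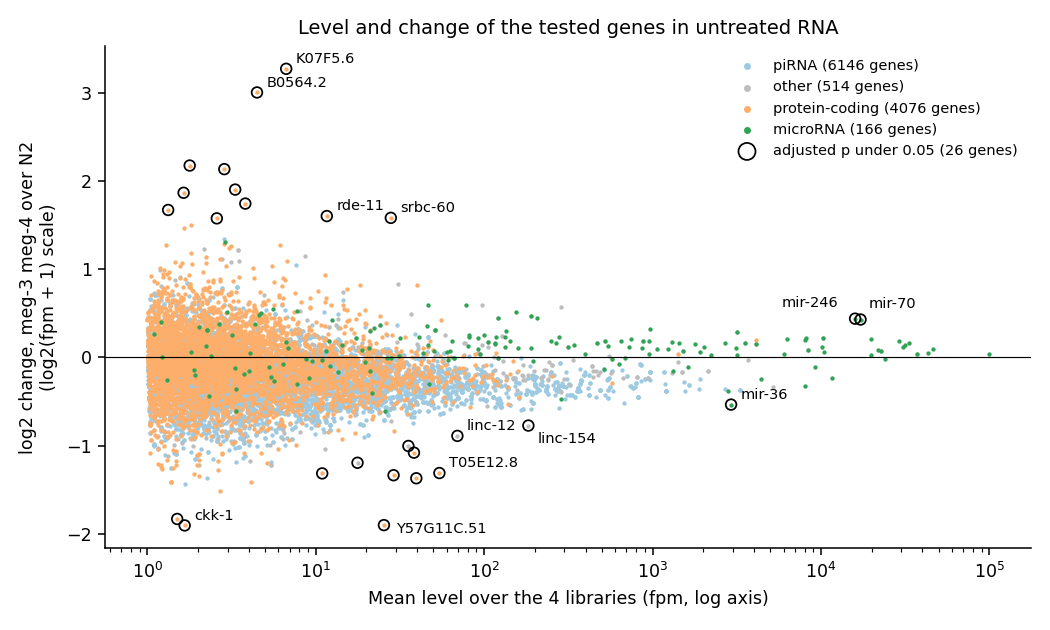
Mean level over the 4 untreated libraries (horizontal axis, fpm, log axis) and log2 change, meg-3 meg-4 over N2 (vertical axis, log2(fpm + 1) scale), for the 10902 tested genes. Circles mark the 26 genes with an adjusted p under 0.05. microRNAs run along or above 0 at high levels, and piRNAs mostly below it.

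Of the 13 genes that rose, 5 had a mean of at least 5 fpm. K07F5.6, a protein-coding gene on chromosome IV, had 65 and 62 reads in meg-3 meg-4, against 1 and 3 reads in N2, or 12.9 and 12.8 fpm against 0.219 and 0.685 fpm. The ratio of the strains was 28.8 (95% counting interval 10.98 to 107, for counting error alone), with a log2 change of 3.28 (SE 0.36, limma adjusted p = 1.7e-10; edgeR adjusted p = 2.4e-04). In treated RNA K07F5.6 stood lower, at 6.34 and 5.11 fpm in meg-3 meg-4, against 2.24 and 0.955 fpm in N2.

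rde-11, the gene of the zinc finger protein that the amplification of exogenous RNAi needs, rose to 17.3 and 18.6 fpm in meg-3 meg-4, against 4.602 and 5.94 fpm in N2. That was 3.41-fold (log2 change 1.61, SE 0.28, limma adjusted p = 1.9e-04), with mutant libraries far above both N2 libraries. The call ended without either meg-3 meg-4 library (limma adjusted p = 0.0576 without replicate 1 and 0.0952 without replicate 2). Its neighbour on chromosome IV, B0564.2, had 46 and 40 reads in meg-3 meg-4 and 0 and 2 reads in N2, a ratio of 39.0 (95% counting interval 10.48 to 327), with a log2 change of 3.01 (limma adjusted p = 2.4e-08). B0564.2 was named after its values were seen, since its mean lies below 5 fpm, and its line overlaps those of the bestrophin channel genes best-1 and best-2.

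srbc-60, a member of a family of chemoreceptor genes, was called from unequal libraries. It stood at 22.5 and 64.8 fpm in meg-3 meg-4, against 13.4 and 10.96 fpm in N2 (log2 change 1.58, SE 0.26, limma adjusted p = 2.6e-05). Without meg-3 meg-4 replicate 2 the limma adjusted p was 0.945, and the authors' deposited table does not call it.

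The other 7 genes that rose had means under 5 fpm and were named after their values were seen. B0261.8 had 15 and 20 reads in meg-3 meg-4 and 0 reads in both N2 libraries, at least 10.6-fold more when N2 is set to 3 reads over both libraries. mltn-3 had 11 and 20 reads against 0 and 1 read, a ratio of 28.1 (95% counting interval 4.69 to 1147). C15F1.8 had 12 and 13 reads against 0 and 1 read, with a ratio of 22.7 (3.71 to 932), and T16H12.2 had 26 and 26 reads against 3 and 1, with a ratio of 11.8 (4.34 to 44.9). In all 4 the strains were apart by several reads in each library.

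tpk-1, which encodes the enzyme that makes the cofactor thiamine pyrophosphate, had 39 and 19 reads in meg-3 meg-4 against 2 and 5 in N2. mif-2, related to mammalian macrophage migration inhibitory factor, had 30 and 33 reads against 7 and 4, and Y22D7AL.7 had 18 and 25 against 3 and 4. Over these 7 genes the limma adjusted p ran from 0.00049 for T16H12.2 to 0.0472 for Y22D7AL.7. The calls of C15F1.8, mltn-3 and Y22D7AL.7 were not shared by edgeR (adjusted p = 0.0984, 0.0653 and 0.0769).

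**Figure D5:**
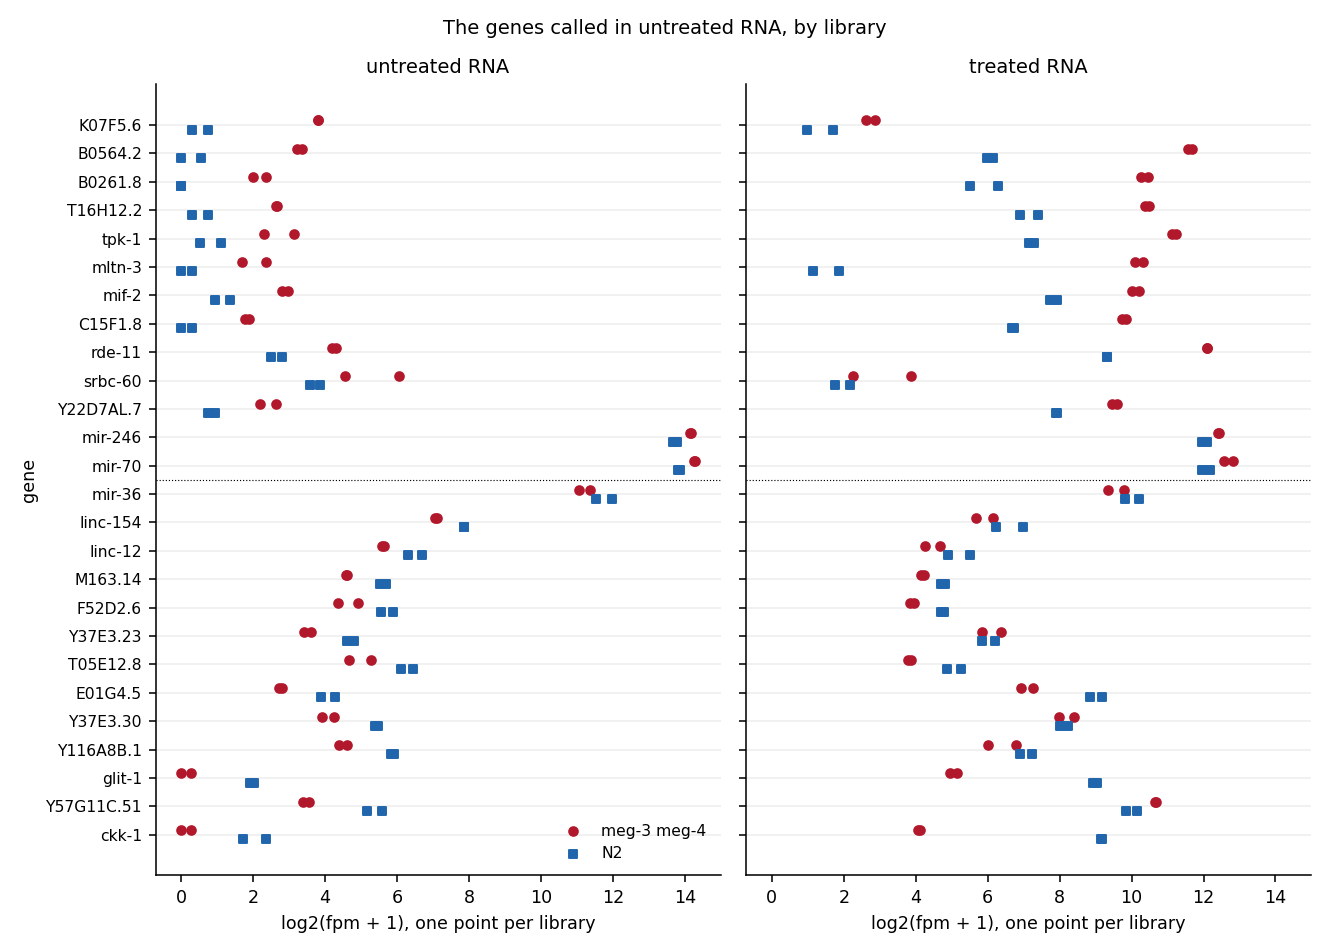
log2(fpm + 1) (horizontal axis) of the 26 genes called in untreated RNA, with a point per library, in untreated RNA (left panel) and treated RNA (right panel). Circles are meg-3 meg-4, drawn above the squares of N2, and the dotted line lies between the 13 genes that rose and the 13 that fell. Y57G11C.51 is lower in meg-3 meg-4 in untreated RNA and higher in treated RNA.

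Among the 13 genes that fell, 11 had a mean of at least 5 fpm. Y57G11C.51, a protein-coding gene on chromosome IV that overlaps Y57G11C.36, stood at 9.36 and 10.8 fpm in meg-3 meg-4, against 34.6 and 46.8 fpm in N2. It fell by 1.90 on the log2 scale (SE 0.24, limma adjusted p = 1.6e-08; edgeR adjusted p = 0.00196), and N2 held 4.05 times as much. Y116A8B.1, also on chromosome IV, stood at 19.7 and 23.6 fpm against 55.4 and 59.4 fpm and fell by 1.37 (SE 0.21, limma adjusted p = 8.1e-06). Without meg-3 meg-4 replicate 1 it was no longer called (limma adjusted p = 0.0782).

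T05E12.8 on chromosome V stood at 24.3 and 37.9 fpm in meg-3 meg-4, against 68.4 and 86.3 fpm in N2, and fell by 1.31 (SE 0.20, limma adjusted p = 8.1e-06). Y37E3.30 stood at 14.1 and 18.0 fpm against 40.8 and 42.9 fpm and fell by 1.34 (SE 0.23, limma adjusted p = 6.9e-05). Its overlapping noncoding neighbour Y37E3.23 stood at 9.56 and 11.2 fpm against 26.7 and 23.3 fpm, and some of these reads may be the same. The limma call of Y37E3.23 ended with the median gene centred (adjusted p = 0.0783). Neither edgeR (adjusted p = 0.124) nor the authors' deposited table (0.763) called Y37E3.23. Without meg-3 meg-4 replicate 1 the calls of T05E12.8, Y37E3.30 and Y37E3.23 ended (limma adjusted p = 0.343, 0.210 and 0.533).

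E01G4.5, known as a gene whose small RNAs depend on the Argonaute ERGO-1, had 28 and 29 reads in meg-3 meg-4, against 63 and 80 reads in N2. It fell by 1.32 on the log2 scale (SE 0.29, limma adjusted p = 0.0065; edgeR adjusted p = 0.0993). F52D2.6 on chromosome X stood at 19.5 and 29.4 fpm against 46.2 and 58.0 fpm (-1.08, limma adjusted p = 0.00215). In both genes the strains did not overlap. Neither call held without meg-3 meg-4 replicate 1 (limma adjusted p = 0.359 and 0.744), with the median gene centred (0.0763 and 0.0754) or in the authors' deposited table (0.945 and 0.444). That of E01G4.5 also ended without meg-3 meg-4 replicate 2 (limma adjusted p = 0.242) and without N2 replicate 2 (0.122), and that of F52D2.6 with edgeR (0.124) and DESeq2 (0.0967).

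Noncoding RNAs made up 4 of the genes that fell beside mir-36. linc-154, a lincRNA gene on chromosome X that overlaps mir-8196.1, stood at 132 and 138 fpm in meg-3 meg-4, against 230 and 232 fpm in N2 (-0.77, SE 0.16, limma adjusted p = 0.00302). linc-12 stood at 47.2 and 48.9 fpm against 103 and 78.3 fpm (-0.89, SE 0.19, limma adjusted p = 0.00499). The snoRNA gene M163.14 stood at 22.9 and 23.6 fpm against 50.2 and 45.2 fpm (-1.004, SE 0.21, limma adjusted p = 0.00517). The mutant libraries agreed closely in all 3. edgeR called none of them (adjusted p = 0.124 to 0.293), and all 3 calls ended with the median gene centred and without either meg-3 meg-4 library.

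ckk-1, whose product activates kinases that respond to calcium and calmodulin, had 0 and 1 read in meg-3 meg-4 against 19 and 10 in N2, and glit-1, related to fly gliotactin, had 1 and 0 reads against 14 and 12. N2 exceeded meg-3 meg-4 by a ratio of 31.95 for ckk-1 (95% counting interval 5.30 to 1305) and 28.6 for glit-1 (4.71 to 1174). Both have means under 5 fpm and were named after their values were seen, and edgeR did not call them (adjusted p = 0.124 each).

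The genes of the strains themselves had too few untreated reads to check the labels. meg-4 had 0 reads in both meg-3 meg-4 libraries and 1 and 0 reads in N2, where 3 reads equal 0.657 to 0.685 fpm. meg-3 had 6 and 1 reads in meg-3 meg-4 and 1 and 8 in N2. Neither gene was tested. In treated RNA, meg-4 averaged 0.189 fpm in meg-3 meg-4, against 72.0 fpm in N2.

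The fed target pos-1, which encodes a maternal zinc finger protein of early embryos, was the protein-coding gene with the most reads, with no call. It stood at 4869 and 3969 fpm in meg-3 meg-4, against 3959 and 3679 fpm in N2. The log2 change was 0.20 (SE 0.12, limma adjusted p = 0.543; edgeR adjusted p = 0.503), and leaving out a library moved it between 0.06 and 0.35. Scaling moved it further, to 0.06 with microRNAs centred, 0.50 with the median gene centred and 0.46 with edgeR under TMM, with no call in any of these. In the mutant, 15.2% and 10.8% of all protein-coding reads came from pos-1, against 12.3% and 8.94% in N2, so that the first library of each strain held the larger share. The tables do not part fragments of the bacterial double-stranded RNA from small RNAs that the worm made.

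For pos-1 the strains differed in treated RNA, where secondary small RNAs enter too. It stood there at 2448 ± 464 fpm in meg-3 meg-4, against 8292 ± 668 fpm in N2 (SD, n = 2 each). The change in untreated RNA exceeded that in treated RNA by 1.97 log2 units (SE 0.20, limma interaction over 8 libraries, adjusted p = 0.00126), and by 1.97 in an edgeR interaction on the recovered reads (adjusted p = 0.000213).

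Small RNAs from genes of the RNAi pathways were few, and rde-11 was the called member. Of 27 genes of exogenous RNAi, 15 could be tested, 1 was called higher and 0 lower, against 0.238% of all genes tested. At an unadjusted p under 0.05 there were 2 higher and 0 lower, against 1.14% and 8.71%. The median log2 change was -0.02, against -0.19 over all genes tested. mut-14, a helicase gene of the mutator complex and the next most abundant member, stood at 3.58 and 9.73 fpm in meg-3 meg-4, against 5.04 and 6.39 fpm in N2. limma called 0 of 16 tested Argonaute genes, with 1 higher and 0 lower at an unadjusted p under 0.05, and edgeR called 0. Their median was -0.08. Among them prg-1, the piRNA Argonaute, stood at 28.7 and 37.3 fpm against 31.6 and 43.4 fpm, and alg-3, of spermatogenesis, at 24.3 and 24.4 fpm against 25.2 and 32.4 fpm.

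Among 6 genes reported as ERGO-1 targets, 4 were tested and E01G4.5 fell. All 4 had a log2 change below 0, with a median of -0.31, and 3 were lower without overlap (75%). All 4 had a mean of at least 10 fpm, where 52.4% of all genes were lower without overlap; over all genes tested the share was 34.5%, with 7.01% higher. Y47H10A.5 stood at 18.5 and 21.3 fpm in meg-3 meg-4, against 24.8 and 19.4 fpm in N2, which overlap, and C44B11.6 at 17.5 and 20.9 fpm against 21.7 and 22.4 fpm. The list summed to 55.6 and 57.5 fpm in meg-3 meg-4, against 76.5 and 76.3 fpm in N2. The median was -0.01 with the median gene centred. Of 14 genes that make 26G RNAs or act with them, 11 were tested and 0 called by limma or edgeR. They had 0 at an unadjusted p under 0.05 and a median of -0.17. Over all genes tested, limma called 0.238%, and 9.85% had an unadjusted p under 0.05.

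Lists of germline genes gave no call, in a comparison that called 0.238% of all genes and had 9.85% at an unadjusted p under 0.05. limma and edgeR called 0 of the 11 tested members of the piRNA pathway (0 higher and 1 lower at an unadjusted p under 0.05), 0 of 13 germ granule genes (1 and 1) and 0 of 12 genes of inherited silencing (2 and 0). glh-1, a Vasa-like helicase of P granules, stood at 21.9 and 28.4 fpm in meg-3 meg-4, against 24.98 and 31.1 fpm in N2. hrde-1, the nuclear Argonaute of inherited silencing, stood at 14.1 and 20.7 fpm against 17.8 and 23.1 fpm. The germ granule list summed to 90.6 and 153 fpm in meg-3 meg-4, against 91.4 and 141 fpm in N2. In each strain the second library held more than the first, by a margin larger than that between the strains.

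Markers of sperm, oocytes and germline, intestine, muscle, neurons and epidermis gave 0 calls by limma or edgeR. Apart from the microRNAs among them, their values are small RNA reads assigned to protein-coding genes. Such reads do not measure the mRNA or the amount of a tissue. None of their members reached an unadjusted p under 0.05 in limma. Over all genes tested, limma called 0.238%, and 9.85% had an unadjusted p under 0.05. The mir-35 family, chosen as the embryo markers and described above, had 1 member called lower by limma and 6 lower at an unadjusted p under 0.05. The 7 tested sperm genes summed, with 1 untested, to 29.7 and 36.2 fpm in meg-3 meg-4, against 27.4 and 39.96 fpm in N2. Oocyte and germline genes summed to 16.9 and 30.2 fpm against 12.7 and 25.3 fpm, with the yolk receptor gene rme-2 at 5.97 and 12.6 fpm against 5.04 and 11.9 fpm. Intestinal genes, chiefly the yolk protein genes vit-2 and vit-6, summed to 31.3 and 65.0 fpm against 24.5 and 53.4 fpm, while ges-1 and elt-2 had no read in any library. The strains overlapped in the sums of the sperm, oocyte and intestinal lists.

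Muscle markers, nearly all of them mir-1, summed to 531 and 621 fpm in meg-3 meg-4, against 552 and 618 fpm in N2. Those of neurons summed to 66.1 and 58.0 fpm against 45.4 and 55.5 fpm, with no overlap between the strains. Those of epidermis summed to 2.39 and 1.86 fpm against 1.97 and 3.20 fpm, with dpy-7 at 0. The part of tissue make-up in the microRNA and piRNA shares was not tested.

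Of the 63 protein-coding genes of at least 50 fpm, limma called T05E12.8. Of the 641 of at least 10 fpm it called 8, all described above, against 15 of all 2927 genes at that level. The most abundant were not called. F43E2.6 stood at 1536 and 1361 fpm in meg-3 meg-4, against 1374 and 1435 fpm in N2, and F59A6.2 at 495 and 531 fpm against 550 and 711 fpm. semo-1, whose line overlaps many piRNA genes, stood at 238 and 226 fpm against 229 and 314 fpm, which overlap. Over the 641 protein-coding genes of at least 10 fpm the median log2 change was -0.18, and 0.11 with the median gene centred, with 218 lower without overlap (34.01%, against 52.4% of all genes at that level) and 25 higher (3.90%, against 4.17%). It was -0.21 for the 456 of them that had more fpm in untreated than in treated RNA, and -0.06 for the other 185.

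Among snoRNAs of at least 50 fpm, 42 in all, the median log2 change was -0.17, with 24 lower without overlap (57.1%, against 64.5%) and 0 higher. The most abundant, C51F7.3, stood at 3657 and 3660 fpm in meg-3 meg-4, against 3409 and 4090 fpm in N2. The ribosomal RNA gene rrn-2.1 stood at 4671 and 4420 fpm against 6728 and 4894 fpm (limma adjusted p = 0.246).

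Most genes that rose in untreated RNA also rose in treated RNA. In treated RNA limma called 251 genes higher (1.54%) and 1093 lower (6.72%) of 16253, 8.27% in all, in another set of 4 libraries. The labels do not say whether treated and untreated libraries were made from the same RNA samples. A gene called in both is therefore not shown to be an independent repeat. Of the 13 genes called higher in untreated RNA, 12 were called higher in treated RNA as well, with srbc-60 the exception. That is 92.3% of the untreated calls and 4.78% of the treated ones. Levels were far apart: 9 of the 13 had more fpm in treated RNA, all of them protein-coding. B0564.2 averaged 8.72 fpm in untreated and 3146 fpm in treated libraries of meg-3 meg-4, and 0.228 and 65.5 fpm in those of N2. mltn-3 averaged 3.17 and 1192 fpm in meg-3 meg-4, and 0.114 and 1.92 fpm in N2. Whether some 22G RNAs with a triphosphate entered the untreated libraries was not tested.

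Of the 13 genes that fell in untreated RNA, 4 fell in treated RNA as well (30.8% of the untreated and 0.366% of the treated calls): ckk-1, glit-1, E01G4.5 and T05E12.8. Y57G11C.51 went the opposite way, at 1628 and 1612 fpm in the treated libraries of meg-3 meg-4, against 914 and 1141 fpm in those of N2 (log2 change 0.67, limma adjusted p = 0.0159). Its changes in the 2 kinds of RNA differed by -2.57 log2 units (SE 0.29, limma interaction, adjusted p = 0.00164; edgeR interaction -2.67, adjusted p = 0.000213). The other 8 had adjusted p-values of 0.0726 to 0.915 in treated RNA.

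Most genes called in treated RNA had few untreated reads. Of the 1093 genes lower in treated RNA, 939 were too low to be tested in untreated RNA and 224 had no untreated read. Of the 37 with at least 5 fpm, 29 had a log2 change below 0 in untreated RNA, with a median of -0.24, against a median of -1.24 in treated RNA. Of the 41 treated higher calls at that level, 32 were above 0, with medians of 0.25 in untreated and 0.69 in treated RNA.

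The difference between untreated and treated changes was itself tested as an interaction over 8 libraries, which the fit took as independent. limma called it for 557 of 16459 genes (3.38%), with 476 more positive in untreated RNA (2.89%) and 81 more negative (0.492%). Of these, 483 were protein-coding, 2 were microRNAs and 9 piRNAs. In 531 of the 557 (95.3%) the untreated mean was under 5 fpm, where log2(fpm + 1) leaves little room for a change. edgeR on the recovered reads, with the same library totals, called 18 of 15797 genes (0.114%), 13 more positive (0.0823%) and 5 more negative (0.0317%), all of them among the limma calls. Of the 26 genes called in untreated RNA, 11 had an interaction call by limma and 1 of them, Y57G11C.51, also by edgeR. For mir-70, mir-246, mir-36, linc-12 and linc-154 limma made none (limma adjusted p = 0.696 to 0.980).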

How the data were processed

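Small RNA libraries of whole worms were compared within 1 RNA treatment, 2 meg-3 meg-4 against 2 N2 libraries of untreated RNA, with the treated libraries of the same strains set beside them. The authors deposited tables per mutant and RNA treatment that hold, per the file headers, fpm per library (the CPM unit: reads scaled to the library total, not to gene length), a fold change as log2 and a p-value after adjustment. Per the submitters' processing notes the tools were cutadapt, Bowtie2, HTSeq and DESeq2 with the genome build ce10, without versions. Not given in the sources used here are the strand setting, the read lengths kept and how reads with several placements were counted. The 6 columns of authors' means in these tables and the table of rde-11 in treated RNA were not used.

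From the deposited CPM values, reads were recovered as whole multiples of 1 step per library (100% whole at a tolerance of 0.01 reads). Intervals and the floor of 3 reads cover counting error only, because reads lacked molecular identifiers and may be copies of 1 molecule. Replicates of a strain differed by more than sampling noise, with a median chi-square per gene of 2.38 in meg-3 meg-4 and 6.63 in N2 over 785 genes. Lines with the same values in all 4 libraries, from at least 40 reads in sum, numbered 2909 and held 31.4% of the fpm. Names, classes and overlaps came from RefSeq and Ensembl annotations of WBcel235 (41776 identifiers matched, 99.4%). That build is another than the tables' own, so no coordinates are given, and no sequences are shown.

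The main test, on log2(fpm + 1), was that of limma 3.58.1 (R 4.3.3) with its trend option, over genes whose 4 untreated libraries averaged 1 fpm or more. Its p-values were adjusted after Benjamini and Hochberg over all genes tested, and calls were made under 0.05. The interaction of strain and RNA treatment was fitted over 8 libraries, counted as the change in untreated minus that in treated RNA. The quasi-likelihood test of edgeR 4.0.16, run on the recovered reads, called 21 of 7904 genes, and an interaction on the reads of the 8 libraries, added after the data were seen, 18 of 15797. The log2 values of DESeq2 1.42.0 lay within 2.5e-05 of those in the authors' deposited table. The other alternatives were pseudocounts of 0.5 and 4, other filters, microRNAs or the median gene of at least 50 fpm centred, identical lines once, the replicate number as a block, each library left out and all 3 strains in 1 fit. On simulated reads with the mean levels and depths of this comparison, limma called 73 of 100 genes changed by 2 log2 units and 22 of 100 changed by 1, with 6 false calls among 10735 genes. The simulation gave every gene and library the same added spread and held no shift shared by many genes. The data had such a shift and a wider spread in N2, so these counts may not hold for them.

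The gene lists were chosen with earlier results of these data known. The genes named were the strain genes and pos-1, the 12 called genes of largest change each way and every called microRNA with a mean of at least 5 fpm, the 10 most abundant microRNAs and piRNAs, the called and the 2 most abundant members of each list, and the 5 interaction calls of largest size each way averaging 5 fpm or more across both kinds of RNA. Further members of the mir-35 family and genes said to be so were named after their values were seen.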

Additional observations from a re-analysis of the deposited data

Results flagged for a closer look

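Of the genes named, 22 had a call in the interaction of strain and RNA treatment by limma on log2(fpm + 1) over 8 libraries. A value above 0 means a more positive log2 change in untreated RNA. On that scale a gene with few untreated reads has an untreated change near 0, whatever its fold difference, so that the interaction then restates the treated change. An edgeR interaction on the recovered reads, added after the data were seen, called 4 of the 22 in the same direction and did not call the other 18.

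The 4 called by both are pos-1, Y57G11C.51, ndx-2 and T25D3.3. For pos-1 the difference was 1.97 (limma adjusted p = 0.00126; edgeR 1.97, adjusted p = 0.000213). For Y57G11C.51, lower in untreated and higher in treated RNA of the mutant, it was -2.57 (limma adjusted p = 0.00164; edgeR -2.67, adjusted p = 0.000213). ndx-2 had 4.96 (limma adjusted p = 0.000428; edgeR 4.99, adjusted p = 0.000213), with untreated means of 2.96 fpm in meg-3 meg-4, against 4.90 fpm in N2, and treated means of 7.47 fpm against 397 fpm. T25D3.3 had 5.53 (limma adjusted p = 0.000428; edgeR 6.47, adjusted p = 0.0301), from 5 untreated reads in meg-3 meg-4 and 3 in N2, and treated means of 1.87 fpm against 115 fpm.

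For 5 genes called in untreated RNA the ratios of mean fpm between the strains did not follow the limma value. ckk-1 had a limma value of 3.17 (adjusted p = 0.00209), but N2 held 31.1 times as much as meg-3 meg-4 in untreated and 35.7 times as much in treated RNA. glit-1 had 2.09 (limma adjusted p = 0.00671), with N2 holding 29.2 and 15.6 times as much. B0564.2 had -2.56 (limma adjusted p = 0.00328), while meg-3 meg-4 held 38.2 times as much as N2 in untreated and 48.04 times as much in treated RNA. C15F1.8 had -1.42 (limma adjusted p = 0.0363), although its fold was larger in untreated RNA (22.3) than in treated RNA (8.61). B0261.8 had -2.28 (limma adjusted p = 0.0142), with 0 untreated reads in N2. edgeR called none of these 5 (adjusted p = 0.999989 each), and its value for glit-1, C15F1.8 and B0261.8 had the opposite sign.

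Among the other genes called in untreated RNA, limma gave 1.86 for K07F5.6 (adjusted p = 0.0474; edgeR 0.444), -6.84 for mltn-3 (0.000428; edgeR 0.999989), -2.04 for tpk-1 (0.0319; edgeR 0.999989), -1.41 for Y37E3.30 (0.0402; edgeR 0.192) and -1.18 for rde-11 (0.0355; edgeR 0.278). The rde-11 call was lost in 12 of 17 alternatives (adjusted p = 0.0663 to 0.278), among them 7 of the 8 fits without a library.

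The remaining 8 were called in treated RNA, and limma did not call them in untreated RNA or could not test them there. limma gave 5.81 for meg-4 (adjusted p = 0.000375), with 0 untreated reads in meg-3 meg-4 and 1 in N2, 4.98 for the pseudogene Y54G2A.42 (0.000428; 0 and 6 reads), -3.46 for faah-2 (0.00154; 1 and 2 reads) and -5.06 for F41C3.8 (0.000556; 9 and 2 reads), and edgeR gave all of these an adjusted p of 0.999989. It gave 4.82 for gpr-158 (0.00126; edgeR 0.0525), 2.51 for the muscle myosin gene unc-54 (0.0127; edgeR 0.0984), -4.06 for the F-box gene fbxa-125 (0.000825; edgeR 0.0741) and -3.45 for H14A12.5 (0.00187; edgeR 0.231).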

How the results depend on the processing

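limma as reported gave 13 genes higher, 13 lower, 3 microRNAs and 0 piRNAs. With no filter on low values 0 genes were higher and 0 lower, with 0 microRNAs. With a mean of at least 10 fpm 2 were higher and 0 microRNAs were called. With microRNAs centred 295 genes were lower, with 5 microRNAs and 231 piRNAs, and with the median gene centred 34 were higher, 4 lower and 9 microRNAs called. Lower calls numbered 4 with edgeR under TMM, 4 with edgeR under DESeq2 size factors, 4 with DESeq2 and 4 in the authors' deposited table. DESeq2 called 9 microRNAs, and the fit of all 3 strains 1. At an unadjusted p under 0.05, counted after the data were seen, 124 genes were higher. Leaving out a library moved higher calls between 3 and 38, lower calls between 1 and 316, microRNAs between 0 and 13 and piRNAs between 0 and 267, with the highest lower and piRNA counts without N2 replicate 1. Of the 26 calls, 24 were kept at a pseudocount of 0.5, 26 at 4, 24 with microRNAs centred, 17 with the median gene centred, 25 with identical lines once, 22 with 3 strains, 12 with edgeR and 9 in the authors' deposited table.

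With the replicate number as a block (a replicate block), 30 genes were higher, 42 lower and 16 piRNAs called, and all 26 calls were kept. The labels do not link the numbers, there are 2 pairs, and deviations of same-numbered libraries correlated at 0.296 across 785 genes, so the block stays an alternative.

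Against 557 interaction calls there were 274 at a pseudocount of 0.5, 1208 at 4, 361 with no filter, 364 with a mean of at least 10 fpm, 225 to 388 without a library and 18 with edgeR on the recovered reads, an alternative added after the data were seen. Of the 12 interaction genes followed, limma kept 11 or 12 in each setting, the one lost being rde-11, whose call ended in 12 of 17 alternatives, and edgeR kept pos-1, ndx-2 and T25D3.3. Signs turned within the mir-35 family: mir-35 was at 0.0568 with the median gene centred and 0.0040 under TMM, mir-37 at 0.0508 and 0.0053, and mir-42 at 0.196 and 0.1519, and at 0.123 both with edgeR under DESeq2 size factors and in the authors' deposited table. mir-41 ran from -0.6217 to 0.0251 as a library was left out. The pos-1 change ran from 0.06 to 0.50 with no call, and both share differences kept their direction, from 2.71 to 5.21 percentage points for microRNAs and from -5.10 to -2.57 for piRNAs. The causes of these shifts were not tested. Depth limits genes near 1 fpm, where 1 read is 0.199 to 0.228 fpm.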

Other observations

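Lists whose members gave no comparison of their own are given here as values. A list of 17 sperm-specific ssp and ssq genes, added after the data were seen, had 15 members tested in untreated RNA. limma and edgeR called 0 of them, with 1 higher and 1 lower at an unadjusted p under 0.05. Over all genes tested, limma called 0.238%, with 1.14% higher and 8.71% lower at an unadjusted p under 0.05. The median log2 change of the list was -0.04, against -0.19 over all genes tested.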
